A study of Mus musculus with 6 samples.

Results

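A set of 10 genes that write, remove or read repressive chromatin marks was followed in sorted blood stem cells: Dnmt1, Dnmt3a, Dnmt3b, Tet1, Tet2, Tet3, Ezh1, Ezh2, Asxl1 and Bmi1. They were chosen by name for their known roles in haematopoietic stem cells (HSCs), with earlier results of these data known. All 10 were found among the 28786 genes of the deposited table. The cells came from the marrow of C57BL/6 mice, wild type and 6 to 8 weeks old, and were gated as HSCs on Sca-1, c-Kit and CD150 and on the absence of lineage markers and CD48. They were divided by their staining with TMRM, which collects in mitochondria with a high membrane potential, and 1500 cells entered each of 3 TMRM-high and 3 TMRM-low libraries. No agent other than the dye and no altered allele is named in the labels, and both groups share the same gate, strain, genotype and age range. The labels do not say how many mice were used or whether each library had its own, so the p-values rest on a spread that may be technical.

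DNA methylation is laid down at unmethylated CpG sites by the de novo methyltransferases DNMT3A and DNMT3B and copied after replication by the maintenance enzyme DNMT1. TET1, TET2 and TET3 are dioxygenases that oxidise 5-methylcytosine, the first step of its removal. Polycomb repressive complex 2 (PRC2) methylates histone H3 at lysine 27 through EZH1 or EZH2, and Polycomb repressive complex 1 (PRC1), to which BMI1 belongs, ubiquitinates histone H2A. ASXL1 is a cofactor of the deubiquitinase BAP1, which removes the latter mark. Loss of Dnmt3a or Tet2 expands HSCs in mice, Bmi1 is needed for their self-renewal, and DNMT3A, TET2 and ASXL1 are the genes most often mutated in clonal haematopoiesis.

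Library totals of the estimated counts ran from 14270069 to 22070594, and each of the 10 genes had at least 331 counts in every library. Levels are given in CPM, counts relative to the TMM-scaled library size, and differences as log2 fold changes of TMRM-high minus TMRM-low. The 3 TMRM-high libraries resembled each other more than the TMRM-low libraries did: the biological coefficient of variation was 7.28% in the former and 42.5% in the latter, and chi-square per degree of freedom between pairs was 3.98 to 6.74 against 46.0 to 51.4. No pair therefore agreed within counting noise, and all 6 libraries were counted. Of the genes behind the sort gate, Kit was at 192 to 299 CPM and Slamf1, which encodes CD150, at 1.03 to 8.99 CPM over the 6 libraries, while Cd48 was at 112 to 155 CPM although the gate took cells without its protein. Ly6a, which encodes Sca-1, was at 28.2 to 32.6 CPM in TMRM-high and 163 to 176 CPM in TMRM-low libraries. In bulk libraries fewer cells of a type and less RNA per cell cannot be told apart. The summed level of 12 granulocyte and monocyte genes was 15600 to 16000 CPM in TMRM-high and 3720 to 4090 CPM in TMRM-low libraries, that of 12 B lymphoid genes 2060 to 2090 against 542 to 627 CPM, and that of 13 HSC identity genes 237 to 248 against 617 to 651 CPM. Of these 13 genes, Hlf and Ly6a being the most abundant, 6 were called lower and 7 were not called, beside 5.12% lower over all genes. The sums were 291 to 322 against 118 to 154 CPM for 10 erythroid genes and 525 to 533 against 191 to 208 CPM for 8 mast cell and basophil genes. For T and NK cell genes the sum of 615 to 625 against 358 to 440 CPM was carried by Nkg7 (556 ± 6.18 against 218 ± 24.1 CPM), and of 9 tested 1 was called higher and 4 lower, Cd3d among the latter (median log2 fold change -1.44). For macrophage genes the sum of 126 to 144 against 22 to 36.4 CPM was carried by Vcam1 and Slc40a1, and of 7 tested these 2 were called higher and the complement genes C1qa and C1qb lower (median -0.45). The part of these cell type genes in the results below was not tested.

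Ezh2, the PRC2 methyltransferase of dividing cells, was the 1 gene of the 10 that passed the test, and it was 1.47-fold higher in TMRM-high libraries. None of the 10 was called lower, and DESeq2 and limma voom also called Ezh2 higher and no other of the 10. Over all 13662 genes tested, 5.84% were called higher and 5.12% lower, so 1 call among 10 genes lies near the share over all genes. Calls are at a Benjamini-Hochberg adjusted p below 0.05 in edgeR's quasi-likelihood test over all genes. The groups did not overlap for 2 genes with higher (Ezh2, Tet2) and 2 with lower TMRM-high values (Ezh1, Dnmt3b), against 18.4% and 17.0% of all genes tested. An unadjusted p below 0.05 was reached by Ezh2 and Ezh1, 2 of the 10, against 25.6% of all genes. The median log2 fold change of the 10 genes was -0.04, beside -0.03 over all genes. Under all settings tried the absolute log2 fold change of each of the 10 genes stayed at or below 0.70.

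**Figure D1:**
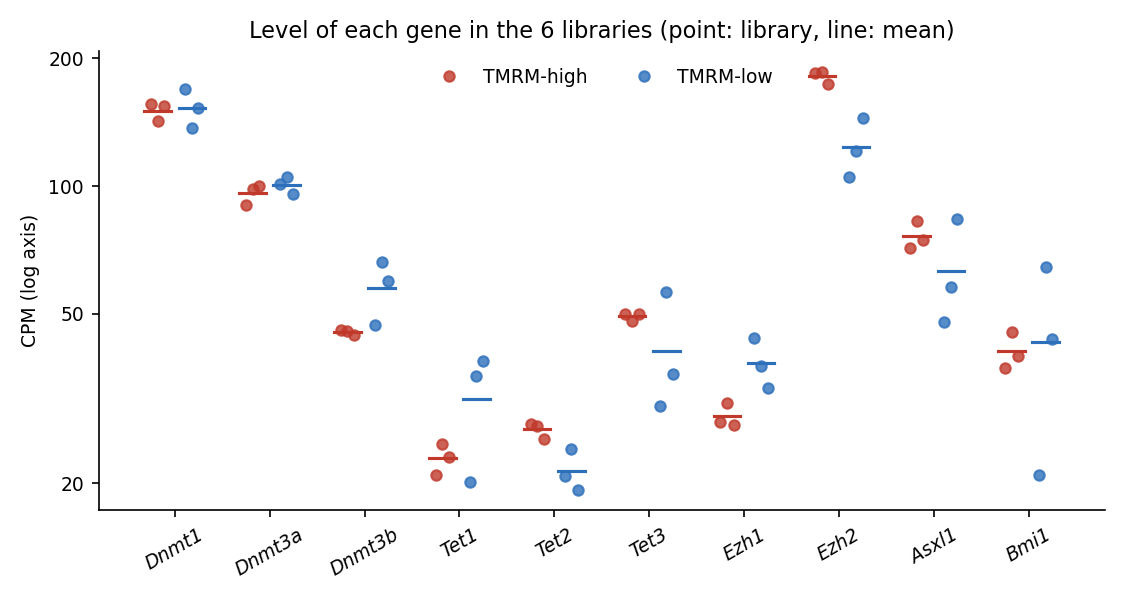
Level of the 10 genes in CPM on a log axis, with 1 point per library, TMRM-high in red and TMRM-low in blue, and a line at each mean (n = 3 per group). Ezh2 sits at 174 to 186 CPM in TMRM-high and 105 to 145 CPM in TMRM-low libraries, and the blue points are more spread than the red ones for every gene except Dnmt3a.

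Compared per length of the gene's merged exons, the methyltransferase genes Ezh2 and Dnmt1 were the most abundant and the TET genes the least. In TMRM-high libraries Ezh2 was at 27.2 ± 1.00 and Dnmt1 at 20.4 ± 1.02 CPM per kilobase (SD, n = 3), with no overlap between them. In TMRM-low libraries the same pair stood at 18.5 ± 3.01 and 20.8 ± 2.14 CPM per kilobase, and their libraries overlapped. Bmi1 (10.3 ± 1.04 in TMRM-high and 10.8 ± 5.48 in TMRM-low), Asxl1 (10.2 ± 0.769 and 8.47 ± 2.47) and Dnmt3b (8.87 ± 0.115 and 11.3 ± 1.90) formed the next step on this scale. Bmi1 and Asxl1 overlapped in both groups, and Dnmt3b lay below both of them only in TMRM-high libraries. Dnmt3a followed at 5.79 ± 0.313 and 6.05 ± 0.284 CPM per kilobase, and Ezh1 at 3.86 ± 0.248 and 5.15 ± 0.717. Tet3 was at 2.95 ± 0.0653 and 2.45 ± 0.820, Tet1 at 1.48 ± 0.123 and 2.04 ± 0.649, and Tet2 at 1.59 ± 0.0688 and 1.26 ± 0.142 CPM per kilobase. Tet1 and Tet2 overlapped in both groups, so their order is not set on this scale. Per length of the longest annotated transcript, 4 of the 10 genes kept their place in the order, and the TET genes stayed in the last 3 places. By that length Ezh2 lay above Dnmt1 in TMRM-low libraries too, at 44.3 ± 7.21 against 26.1 ± 2.69 CPM per kilobase with no overlap. The order of these 2 genes in this group thus depends on the length used. So does that of Tet2 and Tet1 in TMRM-high libraries, at 2.91 ± 0.126 against 1.59 ± 0.133 CPM per kilobase with no overlap by the longest transcript. In TMRM-low libraries Tet2 and Tet1 overlapped by that length too.

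The genes of the 2 PRC2 enzymes stood on opposite sides: Ezh2 was higher in TMRM-high libraries, and Ezh1 was at higher values in TMRM-low libraries without passing the test. Ezh2 (ENSMUSG00000029687, chromosome 6, 47530139 to 47595341 on GRCm38, minus strand) was at 185, 186 and 174 CPM in TMRM-high and 105, 121 and 145 CPM in TMRM-low libraries. All TMRM-high libraries lay above all TMRM-low libraries, and the TMRM-low libraries were the more spread. The means were 181 ± 6.70 and 123 ± 20.1 CPM (SD, n = 3), and the log2 fold change was 0.55 (SE 0.122, 95% interval 0.27 to 0.84, edgeR adjusted p = 0.0279). Ezh1 (ENSMUSG00000006920, chromosome 11, 101191115 to 101226463, minus strand), which encodes the PRC2 enzyme that prevails in resting cells, was at 27.9, 30.8 and 27.4 CPM in TMRM-high and 44.0, 37.7 and 33.4 CPM in TMRM-low libraries. Its groups did not overlap either, with TMRM-low above, but the difference did not pass (log2 fold change -0.42, SE 0.172, 95% interval -0.82 to -0.02, edgeR adjusted p = 0.176). The call of Ezh2 was lost without any 1 TMRM-high library (edgeR adjusted p = 0.108 to 0.135), in fits that called 1.77% to 1.92% of all genes higher. It was also lost without TMRM-low replicate 2 (edgeR adjusted p = 0.0539), in a fit that called 8.63% higher. With the TMRM-high libraries summed into 1 the log2 fold change of Ezh2 was 0.59, and under all settings it stayed between 0.45 and 0.69.

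Ezh2 exceeded Ezh1 by 6.62, 6.02 and 6.33 times in CPM in the TMRM-high libraries and by 2.38, 3.21 and 4.33 times in the TMRM-low libraries. This ratio within a library does not depend on how libraries are scaled. The log2 ratio of Ezh1 to Ezh2 averaged -2.66 ± 0.0682 in TMRM-high against -1.68 ± 0.432 in TMRM-low libraries (SD, n = 3), a difference of -0.97 with no overlap. An exact two-sided permutation test gave p = 0.10, the smallest that 3 against 3 libraries allow, and 0.30 after Benjamini-Hochberg adjustment over the 3 ratios tested. The same ratio for the de novo methyltransferase genes, Dnmt3a to Dnmt3b, was 1.09 ± 0.0943 against 0.82 ± 0.244 on the log2 scale (difference 0.27, exact permutation p = 0.20, adjusted 0.30), and the groups overlapped. For Tet2 to Tet3 it was -0.88 ± 0.0797 against -0.89 ± 0.345 (difference 0.01, exact permutation p = 1.0, adjusted 1.0). Of the 3 ratios, that of Ezh1 to Ezh2 was the only one whose groups did not overlap. Both genes already lay apart in opposite directions, so this ratio had to separate and its permutation p had to be 0.10. The test therefore adds nothing to the values of Ezh1 and Ezh2 given above.

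**Figure D2:**
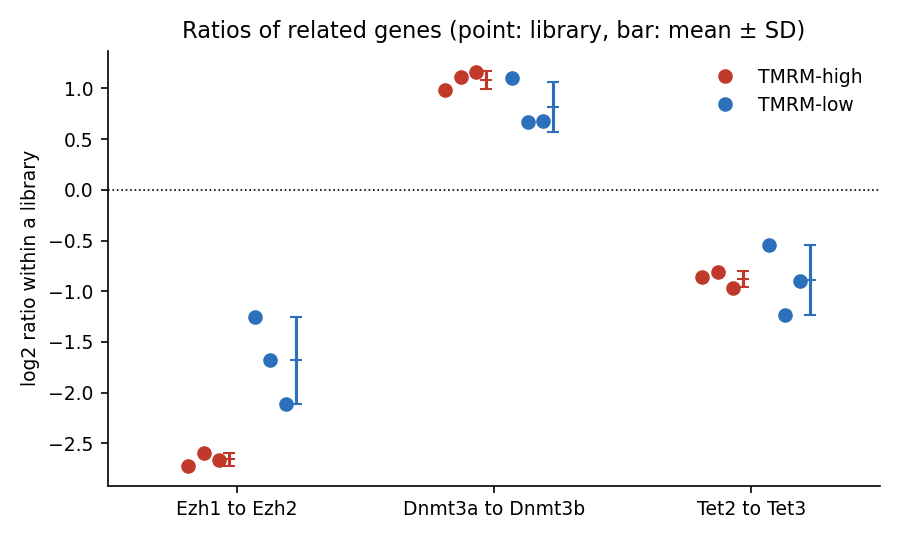
Log2 ratio of 2 related genes within each library, TMRM-high in red and TMRM-low in blue, with the mean ± SD of each group beside the points (n = 3). The Ezh1 to Ezh2 ratio lies between -2.72 and -2.59 in TMRM-high and between -2.11 and -1.25 in TMRM-low libraries, while the groups overlap for the other pairs.

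Ezh2 and Dnmt1 are described as targets of E2F factors, which drive genes of DNA replication and division. Windows at gene starts of Ezh2, Ezh1 and Dnmt1 are shown because the first gene passed the test and the others did not. Each runs from 250 bases before to 50 bases after a gene start of RefSeq on GRCm38.p6, on the gene's own strand. Capitals mark the E2F motif, searched as TTTCCCGC, TTTCGCGC, TTTGCCGC and TTTGGCGC on both strands. The windows are chr6:47594981-47595280 for Ezh2, chr11:101226414-101226713 for Ezh1 and chr9:20952574-20952873 for Dnmt1, all on the minus strand.
Ezh2: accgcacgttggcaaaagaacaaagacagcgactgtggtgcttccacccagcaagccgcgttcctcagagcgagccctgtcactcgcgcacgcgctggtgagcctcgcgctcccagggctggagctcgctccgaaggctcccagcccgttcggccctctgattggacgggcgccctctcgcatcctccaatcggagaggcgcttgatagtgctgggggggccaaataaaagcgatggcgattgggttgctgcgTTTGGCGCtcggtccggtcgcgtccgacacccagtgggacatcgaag
Ezh1: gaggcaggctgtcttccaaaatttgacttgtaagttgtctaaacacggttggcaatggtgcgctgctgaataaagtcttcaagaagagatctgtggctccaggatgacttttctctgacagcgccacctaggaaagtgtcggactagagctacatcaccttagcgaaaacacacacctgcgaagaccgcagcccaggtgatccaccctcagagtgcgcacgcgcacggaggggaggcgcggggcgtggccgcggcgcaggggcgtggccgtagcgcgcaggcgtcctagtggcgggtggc
Dnmt1: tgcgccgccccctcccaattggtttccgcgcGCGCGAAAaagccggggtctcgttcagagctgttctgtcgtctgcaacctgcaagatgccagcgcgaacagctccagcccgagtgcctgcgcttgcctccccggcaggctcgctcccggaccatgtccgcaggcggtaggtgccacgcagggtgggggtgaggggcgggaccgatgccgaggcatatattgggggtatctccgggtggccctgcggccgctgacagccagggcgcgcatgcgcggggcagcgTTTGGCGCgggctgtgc
The motif was found 1 time in the Ezh2 window and 2 times in this Dnmt1 window, 1 of the latter in reverse, and not in the Ezh1 window. Among 32851 windows of the same length 2.26% held it. All 10 genes were matched by symbol, with 14 windows because Dnmt1 and Dnmt3a have several starts, and no other window of theirs held the motif. Of the 3 Dnmt1 windows, the one shown was chosen because it holds the motif. It lies downstream of the other Dnmt1 starts, inside the gene as annotated from them, so it is not only sequence before the gene. CpG pairs numbered 31 in the Ezh2 window, 23 in the Ezh1 window and 2, 12 and 33 in the Dnmt1 windows, the last in the one shown, beside a median of 7 over all windows. Of all windows 21.5% had at least the median CpG count of the 14. Such matches describe the letters only, and Dnmt1, with 2 of them, did not pass the test.

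The summed level of 16 proliferation genes was also higher in TMRM-high libraries. It was 3850 to 3920 CPM in TMRM-high and 3170 to 3380 CPM in TMRM-low libraries. Of these genes 9 were called higher, 1 lower and 6 did not pass, beside 5.84% higher and 5.12% lower over all genes. Within the TMRM-low group the sum did not follow Ezh2: it was 3380, 3170 and 3350 CPM where Ezh2 was at 105, 121 and 145 CPM. The 2 most abundant were Mcm6, a subunit of the replicative helicase, which did not pass (404 ± 17.7 against 442 ± 11.8 CPM), and Pcna, the sliding clamp of DNA polymerase, which rose (log2 fold change 0.48, SE 0.0576, edgeR adjusted p = 0.00199). Ezh2 amounted to 4.79%, 4.74% and 4.48% of this sum in the TMRM-high libraries and to 3.10%, 3.82% and 4.32% in the TMRM-low libraries. The groups did not overlap in that share, by a narrow margin against TMRM-low replicate 3. The sum holds 6 Mcm genes, of which none was called higher and Mcm5 was called lower, and 6 of the 16 genes had a larger log2 fold change than Ezh2 (0.55), up to 1.21 for Ube2c, which encodes an enzyme of mitotic exit. The part of proliferation in the result of Ezh2 was not tested.

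**Figure D3:**
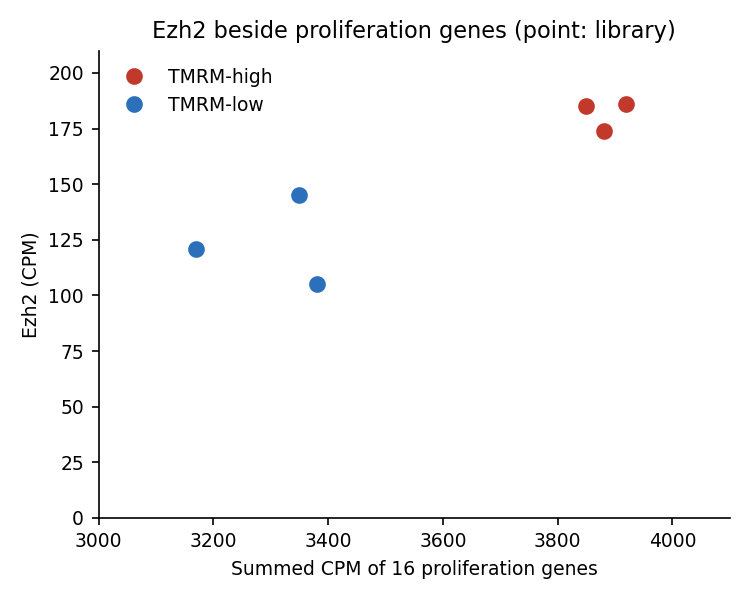
Ezh2 in CPM against the summed CPM of 16 proliferation genes, 1 point per library, TMRM-high in red and TMRM-low in blue; the horizontal axis does not start at 0. The red points lie at 3850 to 3920 summed CPM and above 170 CPM of Ezh2, and the blue points at 3170 to 3380 summed CPM and no more than 145 CPM of Ezh2.

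The genes nearest to Ezh2 in their pattern over the 6 libraries, by the root-mean-square difference of centred log2 CPM among 9955 genes, were Bag4 (0.0443), Aida (0.0455) and Kpna4 (0.0462). None of these 3 passed the test, with edgeR adjusted p-values of 0.122, 0.117 and 0.0797 and log2 fold changes of 0.59, 0.54 and 0.50.

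The other subunits of PRC2 gave no call in either direction among 9 tested with edgeR, with a median log2 fold change of 0.03. An unadjusted p below 0.05 was reached by 2 of them, against 25.6% of all genes. DESeq2 and limma voom each called 1 higher (Suz12) and 1 lower (Rbbp7). The nearest to a higher call was Suz12, the scaffold on which the complex assembles, at 101, 104 and 97.3 CPM in TMRM-high and 78.2, 47.6 and 72.4 CPM in TMRM-low libraries. Its groups did not overlap, and its log2 fold change was 0.61 (SE 0.182, edgeR adjusted p = 0.0762). Eed, the subunit that binds the mark PRC2 makes, was at 83.5 ± 8.04 against 82.0 ± 16.7 CPM. The histone chaperone gene Rbbp7, the most abundant of the list, stood at 317 ± 10.9 against 400 ± 46.1 CPM and missed the threshold (log2 fold change -0.34, SE 0.0880, edgeR adjusted p = 0.0508). Rbbp7 did pass as lower in DESeq2 (adjusted p = 0.0103) and limma voom (0.0163), under upper-quartile scaling (0.0481), total counts (0.0468) and both other filters, and without any 1 TMRM-low library. It did not pass under RLE scaling (edgeR adjusted p = 0.0528), with the replicate number as a block (0.075) or without any 1 TMRM-high library (0.164 to 0.213). With the TMRM-high libraries summed its log2 fold change was -0.31. Its close relative Rbbp4 was at 231 ± 3.09 against 253 ± 51.1 CPM. Suz12 and Eed were named after their values were seen.

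Bmi1 (ENSMUSG00000026739, chromosome 2, 18677018 to 18686629, plus strand), a RING finger subunit of PRC1, was at 37.3, 45.4 and 39.9 CPM in TMRM-high and 20.9, 64.4 and 43.7 CPM in TMRM-low libraries. The TMRM-low libraries held both the lowest and the highest value, so the groups overlapped fully. Its SD over the mean was 10.2% in TMRM-high against 50.6% in TMRM-low libraries, the largest of the 10 genes in either group. The log2 fold change was -0.07 with a 95% interval of -0.91 to 0.77 (SE 0.360, edgeR adjusted p = 0.929). Its sign turned without TMRM-low replicate 2 (0.34) and in 2 other settings.

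Of 23 other PRC1 genes, all tested, 1 was called higher and none lower, beside 5.84% and 5.12% of all genes. The other 22 did not pass, and the median log2 fold change was 0.05. Pcgf5, which encodes a paralogue of BMI1 found in variant PRC1, was at 59.4, 69.9 and 66.7 against 26.7, 43.1 and 41.7 CPM. Its groups did not overlap, and the log2 fold change was 0.81 (SE 0.203, edgeR adjusted p = 0.0432). The call of Pcgf5 was lost without any 1 TMRM-high library (edgeR adjusted p = 0.132 to 0.193) and with these libraries summed (0.933). Rnf2, the catalytic subunit, was at 64.1 ± 1.35 against 55.8 ± 5.64 CPM, and Kdm2b, which brings variant PRC1 to CpG islands, at 70.1 ± 2.67 against 65.3 ± 10.3 CPM. Neither passed. DESeq2 called 1 higher (Pcgf5) and 1 lower (Cbx7). Cbx7, which encodes a chromodomain subunit linked to HSC self-renewal and was chosen after its values were seen, was at 10.8, 9.59 and 9.72 CPM in TMRM-high and 13.9, 22.6 and 19.8 CPM in TMRM-low libraries. All TMRM-low libraries lay above, but the difference did not pass (log2 fold change -0.90, SE 0.278, edgeR adjusted p = 0.0794).

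Asxl1 (ENSMUSG00000042548, chromosome 2, 153345829 to 153404007, plus strand) was at 71.6, 82.7 and 74.6 CPM in TMRM-high and 47.8, 57.9 and 83.6 CPM in TMRM-low libraries. TMRM-low replicate 3 held the highest value of all, and the difference did not pass (log2 fold change 0.27, SE 0.204, 95% interval -0.20 to 0.75, edgeR adjusted p = 0.462). Without that library the log2 fold change was 0.53 and passed (edgeR adjusted p = 0.0397), as did 9.99% of all genes in this direction. Its partner gene Bap1, the deubiquitinase, was at 111, 98.8 and 93.2 against 69.7, 79.6 and 82.6 CPM, with no overlap (0.39, SE 0.117, edgeR adjusted p = 0.0765), and it passed in DESeq2 (adjusted p = 0.0142). The ASXL1 paralogue gene Asxl2 was at 65.8, 67.4 and 64.1 against 96.9, 85.6 and 78.5 CPM, on the TMRM-low side in all libraries, and passed in DESeq2 but not in edgeR (log2 fold change -0.40, SE 0.117, edgeR adjusted p = 0.0675). Among 11 other genes of the BAP1 complex (Bap1 included) and of the H3K27 demethylases, 1 was called higher, none lower and 10 did not pass. DESeq2 called 3 higher and 1 lower. Over all genes edgeR called 5.84% higher and 5.12% lower, and DESeq2 6.49% and 6.48%. The call in edgeR was Kdm6b, a demethylase that removes the mark of EZH1 and EZH2, at 227, 220 and 214 CPM in TMRM-high and 106, 124 and 114 CPM in TMRM-low libraries. These groups were far apart relative to their spread (log2 fold change 0.95, SE 0.0841, edgeR adjusted p = 0.000458), and the call held without each library in turn and was lost with the TMRM-high libraries summed (0.0946). Hcfc1, a cofactor bound by BAP1, was at 120 ± 7.60 against 110 ± 24.2 CPM and did not pass. Kdm6a, also a gene of the H3K27 demethylases, was at 64.0 ± 3.62 against 59.1 ± 17.4 CPM and did not pass (edgeR adjusted p = 0.781). Bap1, Asxl2 and Kdm6a were named after their values were seen.

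**Figure D4:**
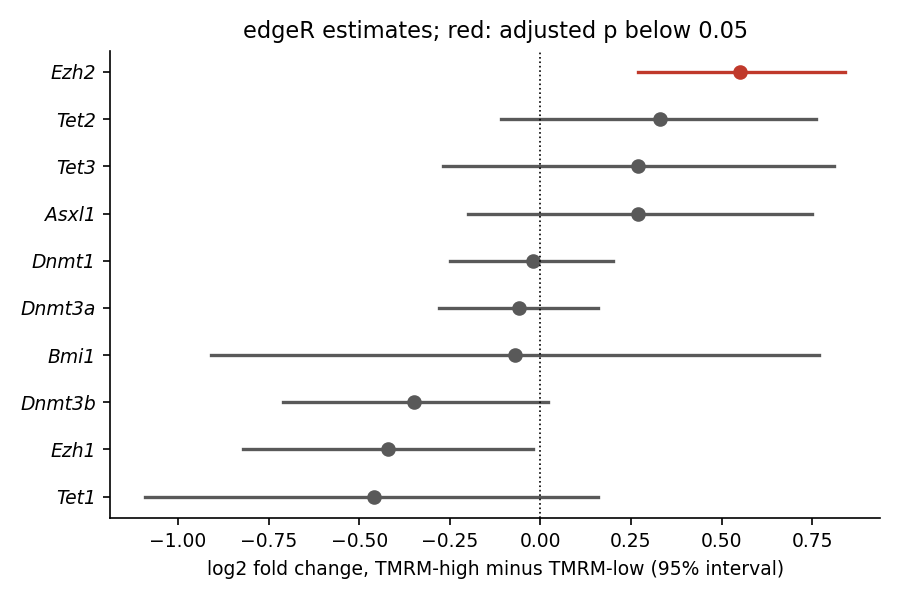
Log2 fold change of each gene, TMRM-high minus TMRM-low, as a point with its 95% interval from the edgeR fit, ordered by size. Ezh2, in red, passed at an adjusted p of 0.0279; the interval of Ezh1 also leaves out 0 but its adjusted p was 0.176, and Bmi1 and Tet1 have the widest intervals.

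None of the 3 DNA methyltransferase genes passed, and Dnmt3b was the 1 whose groups did not overlap. Dnmt1 (ENSMUSG00000004099, chromosome 9, 20907209 to 20959888, minus strand) was at 156, 142 and 154 CPM in TMRM-high and 169, 137 and 153 CPM in TMRM-low libraries. The TMRM-low values enclose the others, and the log2 fold change was -0.02 with a 95% interval of -0.25 to 0.20 (SE 0.0975, edgeR adjusted p = 0.920). Dnmt3a (ENSMUSG00000020661, chromosome 12, 3806007 to 3914443, plus strand) was at 90.4, 98.6 and 100 against 101, 105 and 95.9 CPM. The groups overlapped, and the 95% interval of its log2 fold change of -0.06 ran from -0.28 to 0.16 (SE 0.0943, edgeR adjusted p = 0.734). For both genes the interval leaves out a difference of 1.5-fold in either direction. Dnmt3b (ENSMUSG00000027478, chromosome 2, 153649450 to 153687730, plus strand) was at 45.8, 45.5 and 44.6 CPM in TMRM-high and 47.0, 66.2 and 59.7 CPM in TMRM-low libraries. All TMRM-low libraries lay above, replicate 1 only just, and the difference did not pass (log2 fold change -0.35, SE 0.158, 95% interval -0.71 to 0.02, edgeR adjusted p = 0.219). Without TMRM-low replicate 1 it was -0.47 and passed (edgeR adjusted p = 0.0381), in a fit that called 6.97% of all genes lower.

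All 14 partners of these enzymes and readers of methylated CpG were tested. Of them 1 was called higher and none lower, beside 5.84% and 5.12% of all genes. The other 13 did not pass, and the median log2 fold change was 0.01. Mbd2, which encodes a reader that recruits the NuRD repressor complex, was at 52.4, 51.4 and 56.6 CPM in TMRM-high and 38.7, 27.6 and 27.5 CPM in TMRM-low libraries. Each TMRM-high library was above each TMRM-low library (log2 fold change 0.77, SE 0.180, edgeR adjusted p = 0.0337). The call was lost without any 1 TMRM-high library (edgeR adjusted p = 0.144 to 0.173), without TMRM-low replicate 2 (0.0505) and with the TMRM-high libraries summed (0.986). Mbd3, which encodes a subunit of NuRD, was at 96.1 ± 2.42 against 96.7 ± 9.52 CPM. Uhrf1, which brings DNMT1 to newly replicated DNA, was at 189 ± 4.99 against 182 ± 33.7 CPM. Neither passed. Zbtb33, which encodes the methyl-CpG reader Kaiso and was named after its values were seen, was low but apart, at 8.75, 9.18 and 5.55 against 0.463, 3.12 and 0.871 CPM. It did not pass in edgeR (log2 fold change 2.40, SE 0.735, edgeR adjusted p = 0.0797) and did in DESeq2, which called 2 higher (Mbd2, Zbtb33) and 1 lower (Dmap1) of this list.

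None of the TET genes passed. Tet2 (ENSMUSG00000040943, chromosome 3, 133463679 to 133545139, minus strand) was at 27.5, 27.3 and 25.4 CPM in TMRM-high and 20.8, 24.0 and 19.3 CPM in TMRM-low libraries. All TMRM-high libraries lay above, with a log2 fold change of 0.33 (SE 0.189, 95% interval -0.11 to 0.76, edgeR adjusted p = 0.332). Tet3 (ENSMUSG00000034832, chromosome 6, 83362373 to 83459084, minus strand) was at 50, 48.1 and 49.9 against 30.3, 56.4 and 36.1 CPM. TMRM-low replicate 2 was above and the other TMRM-low libraries were below the TMRM-high ones (log2 fold change 0.27, SE 0.233, 95% interval -0.27 to 0.81, edgeR adjusted p = 0.532), and without it the log2 fold change was 0.57 and passed (0.0383), as did 8.63% of all genes in this direction. Tet1 (ENSMUSG00000047146, chromosome 10, 62804570 to 62908996, minus strand) was at 20.9, 24.7 and 23.0 against 20.1, 35.8 and 38.7 CPM. Here TMRM-low replicate 1 lay apart from the other TMRM-low libraries, below all TMRM-high libraries (log2 fold change -0.46, SE 0.269, 95% interval -1.09 to 0.16, edgeR adjusted p = 0.336), and without it the log2 fold change was -0.70 and passed (0.0343), in the fit named for Dnmt3b.

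The list of 14 TET cofactors and base excision genes had 11 members with enough counts. None was called higher and 1 lower, beside 5.84% and 5.12% of all genes, and 10 did not pass (median log2 fold change 0.02). The 1 lower was Cxxc5, which encodes a CXXC zinc finger protein described to bind TET2, at 84.2, 79.7 and 80.1 CPM in TMRM-high and 113, 106 and 97.8 CPM in TMRM-low libraries. The groups did not overlap, but its adjusted p lay at the threshold (log2 fold change -0.37, SE 0.0985, edgeR adjusted p = 0.0499), and the call was lost under RLE scaling (0.0504), without scaling beyond total counts (0.0536), without a low-count filter (0.0923), in limma voom (0.0652) and with the TMRM-high libraries summed (1.0). It was also lost without any 1 TMRM-high library (edgeR adjusted p = 0.175 to 0.231) and without TMRM-low replicate 1 (0.0566) or 2 (0.0516). Idh2, a mitochondrial source of the 2-oxoglutarate that TET enzymes consume, was at 310.0 ± 14.3 against 340.0 ± 21.6 CPM. Ogt, which encodes the glycosyltransferase that binds TET proteins, was at 151 ± 5.82 against 149 ± 3.56 CPM. Neither passed.

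**Figure D5:**
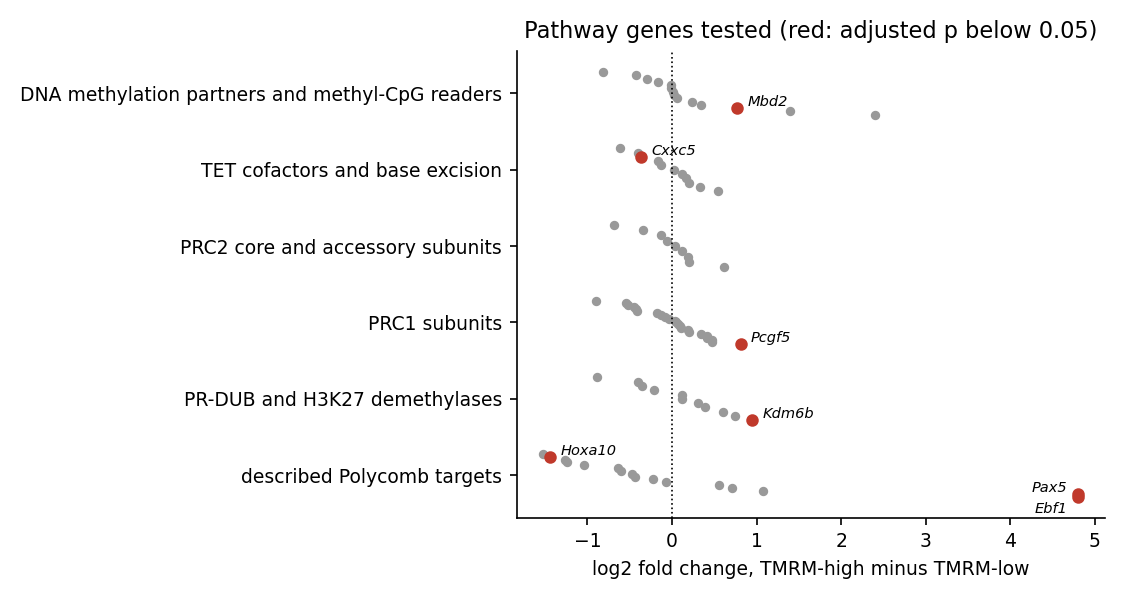
Log2 fold change, TMRM-high minus TMRM-low, of each tested gene of the 6 lists of related genes, 1 point per gene, red where the edgeR adjusted p was below 0.05. Of 84 genes tested 5 were called higher and 2 lower, beside 5.84% and 5.12% of all genes. The red points at 4.80 are the B lineage genes Ebf1 and Pax5.

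Over the 6 lists of related genes, 84 of 92 had enough counts, and 5 were called higher, 2 lower and 77 not. The shares over all genes tested were 5.84% higher and 5.12% lower. The last list held 21 genes described as repressed by Polycomb in blood or embryonic cells. Of the 16 that were tested, 2 rose, 1 fell and 13 did not pass, with a median log2 fold change of -0.45, 5 above 0 and 11 below. DESeq2, which tested 20 of the list, called 2 higher and 5 lower, among the latter Hoxb8, which edgeR did not test. Ebf1, which encodes an early B lineage transcription factor, stood at 44.5, 45.7 and 45.6 CPM in TMRM-high and 2.20, 1.06 and 1.58 CPM in TMRM-low libraries, a log2 fold change of 4.80 (SE 0.303, edgeR adjusted p = 0.000102). Pax5, which acts downstream of EBF1, was at 4.76, 6.16 and 5.90 against 0.231, 0.187 and 0.163 CPM (4.80, SE 0.556, edgeR adjusted p = 0.0017), a call lost with the TMRM-high libraries summed (0.402). Both also belong to the 12 B lymphoid marker genes, of which 11 were called higher and Ms4a1, the CD20 gene, had no count in TMRM-low libraries; the part of B lineage RNA in these values was not tested. Hoxa10, a homeobox gene of early blood progenitors, was lower, at 7.98, 7.75 and 6.11 CPM in TMRM-high against 17.8, 22.6 and 19.0 CPM in TMRM-low libraries (-1.44, SE 0.268, edgeR adjusted p = 0.0145). That call was lost without any 1 TMRM-high library (edgeR adjusted p = 0.0827 to 0.104) and with these libraries summed (0.914). Hoxa9, from the same cluster, was at 60.7 ± 3.31 against 63.5 ± 7.44 CPM, and its cofactor gene Meis1 at 144 ± 5.21 against 167 ± 22.4 CPM; neither passed. Cdkn2a, the cell cycle inhibitor locus that Bmi1 keeps silent, had 1 count over the TMRM-high libraries and 0 over the others. Cdkn2b had no count in any library, which allows up to 0.0279 CPM over all 6 (3 counts, counting error only).

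For 9 of the 10 genes the SD over the mean was larger in TMRM-low than in TMRM-high libraries, as it was for 90.0% of all genes tested, so the 10 genes did not stand apart in this. The other was Dnmt3a (5.41% in TMRM-high and 4.69% in TMRM-low). It ran from 1.30% (Dnmt3b) to 10.2% (Bmi1) in TMRM-high libraries and from 4.69% (Dnmt3a) to 50.6% (Bmi1) in TMRM-low libraries. Tet3 (33.5%), Tet1 (31.8%) and Asxl1 (29.2%) came after Bmi1 in the TMRM-low group.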

How the data were processed

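RNA of 1500 sorted cells per library was reverse transcribed, amplified by 13 cycles of PCR and sequenced as paired reads of 150 bases, per the labels' protocols. Strand is not marked and molecules carry no identifiers in such a protocol, so PCR copies are counted as reads; antisense genes share 0.255% to 2.65% of the exonic bases of Dnmt3a, Tet2, Ezh2 and Asxl1. Salmon (given as version 0.03.1), Trim Galore 0.5.0 and GRCm38 are named in the submitters' processing notes; the annotation and the settings are not stated. The authors deposited estimated counts per gene, unscaled and partly not whole, which were rounded here. Symbols, positions and lengths came from GENCODE M21 (GRCm38), and 27728 of 28786 IDs had a symbol.

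Genes were kept by filterByExpr (13662), scaled by TMM and tested with edgeR 4.0.16 (glmQLFit and glmQLFTest, robust, group as the only term) in R 4.3.3. Intervals of log2 fold changes use its SE and degrees of freedom. On counts simulated after this comparison (3 simulations of 13662 genes) 12.4% of 1.5-fold, 28.3% of 2-fold and 65.0% of 4-fold changes were recovered. Of 40386 unchanged genes 15 were called. The simulation gave each gene the same spread on both sides. The real biological coefficient of variation was unequal, 42.5% for TMRM-low against 7.28% for TMRM-high. Recovery and false calls under such unequal spread were not tested. Ratios used log2 CPM with a prior count of 2. Genes, lists and tests were chosen with earlier results of these data known. Named were all 10 genes, called list members (up to 6 by p), the 2 most abundant not called, and the 3 genes nearest to a called one; 1 listed gene is not reported here and was left out of its list. The alternatives are in the closing section, with DESeq2 1.42.0 and limma 3.58.1.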

Additional observations from a re-analysis of the deposited data

How the results depend on the processing

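The direction of Ezh2 held under every setting tried, and so did those of Ezh1, Dnmt3a, Dnmt3b, Tet1, Tet2, Tet3 and Asxl1. Ezh2 passed in 11 of 16 fits. Among the 10 genes 1 was called higher; this count was 0 with the TMRM-high libraries summed and at a minimum of 2-fold, and 0 to 2 with 1 library left out. The count called lower was 0, and 0 to 2 with 1 library left out (Dnmt3b and Tet1 without TMRM-low replicate 1). Over all genes, 798 were higher and 700 lower. DESeq2 gave 1466 and 1465, the TMRM-high libraries summed 80 and 34, and a minimum of 2-fold 434 and 300. At an adjusted p of 0.10 there were 1138 lower. With 1 library left out the counts ran from 250 to 1397 higher and from 181 to 1172 lower. They fell without any TMRM-high library (250 to 269 higher) and rose without any TMRM-low library (1217 to 1397 higher); the cause was not tested.

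The sign turned for genes near 0: Dnmt1 with the TMRM-high libraries summed (0.01) and over left-out libraries (-0.09 to 0.06), Bmi1 in limma voom (0.07), with the replicate block (0.06) and over left-out libraries (-0.40 to 0.34). It turned for Mbd3 without further scaling (0.01), summed (0.02) and over left-out libraries (-0.06 to 0.08). Left-out libraries turned it for Uhrf1 (-0.08 to 0.17), Ogt (-0.01 to 0.04), Rbbp4 (-0.28 to 0.01) and Hoxa9 (-0.15 to 0.02), and for the log2 ratio of Tet2 to Tet3 (-0.16 to 0.19). The ratio of Ezh1 to Ezh2 kept its direction (-1.19 to -0.76). Per longest transcript 4 of the 10 genes kept their place in the order of levels.

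Same-numbered libraries did not vary together (correlations of -0.0139, 0.0164 and 0.0210), so the numbers are not taken as pairs. With the replicate number as a block 582 genes were higher and 449 lower, Ezh2 still passed (adjusted p = 0.0331), and Mbd2 (0.0611) and Cxxc5 (0.115) did not. Within blocks the permutation p of the Ezh1 to Ezh2 ratio was 0.25, the smallest that 3 pairs allow. The median log2 fold change of all genes moved by less than 0.1 between the settings.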

Other observations

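Enzymes that place the activating mark on lysine 4 of histone H3, which counters Polycomb, were looked at as well; this list was chosen after the values above were seen. Of 14 MLL and COMPASS genes, all tested, 3 were called higher, none lower and 11 did not pass, with a median log2 fold change of 0.18 beside -0.03 over all genes, of which 5.84% were called higher. DESeq2 called 4 higher, Kmt2c being the other, and limma voom 2, without Kmt2d (adjusted p = 0.0524). Kmt2d, which encodes a methyltransferase acting at enhancers, was at 211, 198 and 201 CPM in TMRM-high and 168, 164 and 151 CPM in TMRM-low libraries (log2 fold change 0.33, SE 0.0762, edgeR adjusted p = 0.031). Dpy30, a core subunit of these complexes, was at 118 ± 0.400 against 85.6 ± 7.08 CPM (0.46, SE 0.0969, edgeR adjusted p = 0.023). Hcfc2, a paralogue of the cofactor gene Hcfc1, was at 27.8, 27.5 and 26.2 against 12.6, 13.2 and 15.7 CPM (0.97, SE 0.206, edgeR adjusted p = 0.0239). These 3 calls were lost without any 1 TMRM-high library (edgeR adjusted p = 0.118 to 0.162) and with these libraries summed (0.941 to 1.0). Kmt2a, the MLL gene that maintains Hox expression, was at 110.0 ± 4.15 against 103 ± 20.1 CPM and did not pass (edgeR adjusted p = 0.746). Of 4 genes of H3K4 demethylases none was called. An unadjusted edgeR p below 0.05 was reached by 1, Kdm5b, against 25.6% of all genes, and DESeq2 called Kdm5b higher.

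Hoxb8, a homeobox gene of the Polycomb target list that fell below the low-count filter of the edgeR test and was singled out after its values were seen, had no count in any TMRM-high library and 2.08, 0.687 and 0.544 CPM in the TMRM-low libraries. With 3 counts over the TMRM-high group as the floor, it was at least 20.6-fold lower in TMRM-high libraries, and at least 11.4-fold without TMRM-low replicate 1, which held 36 of its 57 counts; the bounds cover counting error only. DESeq2 called it lower (adjusted p = 0.00235), as did edgeR without the filter (0.0225). In edgeR it did not pass without any 1 TMRM-high library (adjusted p = 0.107 to 0.114), and passed without any 1 TMRM-low library (0.0329 to 0.0468).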
